A study of Drosophila melanogaster with 29 samples.

Results

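Homeobox genes encode transcription factors that share a DNA-binding fold, the homeodomain, and set the identity of body segments, organs and neurons in the fly embryo and larva. The set described here is a list of 59 Drosophila homeobox genes outside cad, ct and gsb. A member was measured where a probe set (a group of array probes for 1 transcript) named that gene alone, and the brightest such probe set stood for the gene. Of the 59 genes, 55 were measured and tested, among 11677 genes tested in all. The other members, tin, vnd, hth and exd, were not analysed here. By homeodomain class, the measured genes were 8 of the Hox complex and eve, 15 others of the ANTP class, 11 PRD, 5 LIM, 3 SINE, 5 TALE, 4 POU and 2 CUT genes, and 2 of the zinc finger and Prospero classes.

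The genes were measured in S2 cells, an embryonic Drosophila line that resembles blood cells (hemocytes), on 29 Affymetrix arrays of total RNA. There were 14 arrays of untreated cells, labelled Mock, and 3 arrays each of cells given double-stranded RNA for 4 days against dKDM2, dRING, PC, PH or PSC. Mock cells are the only controls, so exposure to double-stranded RNA is common to all 5 depletions, and the depletions share their controls. Nothing in the labels ties the biological replicates to separate cultures, and the spread behind the p-values may be technical. In RNA from whole cultures, fewer cells of a type and less RNA per cell cannot be told apart.

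PC, PH, PSC and dRING (gene Sce) are subunits of the Polycomb repressive complex PRC1, which binds chromatin and helps keep developmental genes silent outside the cells that need them. Homeobox genes, the Hox genes first among them, are the best known targets of Polycomb repression in flies. dKDM2 is a histone demethylase, which the study's title links to Polycomb silencing. The comparisons below ask which homeobox genes differed from untreated cells after each depletion, and whether the depletions differed from each other.

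A level here is a log2 signal after quantile normalization, which gives all arrays the same distribution. The deposited values have a common lowest value, 2.27 on the log2 scale, called the floor below, and 41.8% of all values lay at it. A gene was called where its limma p-value was under 0.05 after Benjamini-Hochberg adjustment across all 11677 genes, and "rose", "higher" and "lower" are used of such genes. Changes are log2 fold changes with the standard error (SE) from limma, and levels have the standard deviation (SD) over arrays. Where untreated arrays lay at the floor, a change is measured from the floor and depends on the scaling. Signals of different probe sets are not compared as amounts of transcript, and 3 arrays per depletion limit the precision.

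Most homeobox genes had no signal above the lowest levels in S2 cells, with or without a depletion. In Mock, the mean level was above 4 for 2 of 55 homeobox genes (3.64%), ap and achi, against 5521 of 11677 genes (47.3%). Under 3 on all 29 arrays stayed 37 of the 55 (67.3%), against 38.5% of all genes tested, and the highest value among these genes was 2.77 for Optix. At the floor on all 14 Mock arrays lay 11 of 55 genes, against 945 of 11677 (8.09%). Only 12 of 55 (21.8%) were above the floor on every array, against 60.3% of all genes tested. The histogram of Mock levels shows this pile at the floor.

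**Figure D1:**
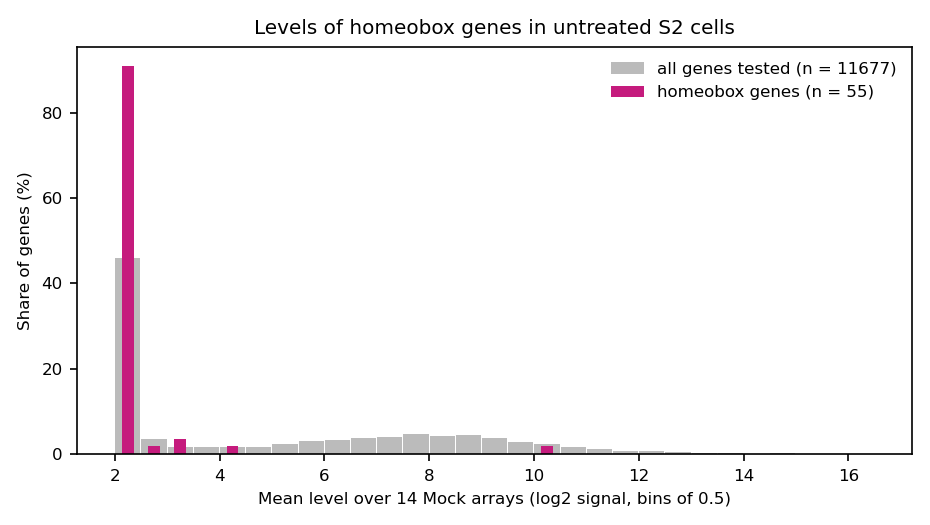
Mean level over the 14 Mock arrays, on the log2 scale in bins of 0.5, for the 55 homeobox genes and for all 11677 genes tested, as a share of the genes of each set. The homeobox genes lie almost wholly in the lowest bin, with ap above 10 and achi above 4.

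The 18 genes that passed 3 on any array did so in different ways. On a single array each, 9 did so, namely Dfd, Antp, en, Dll, ind, C15, unpg, Awh and dve. The other 9 passed it on several arrays, namely B-H1, E5, oc, Ptx1, ap, so, achi, vis and nub. The number of homeobox genes above 4 ranged from 1 to 3 on the Mock arrays, from 2 to 4 after dKDM2 depletion and from 3 to 5 after PH depletion. It was 2 on each dRING array, 2 to 3 on the PC arrays and 3 on each PSC array.

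**Figure D2:**
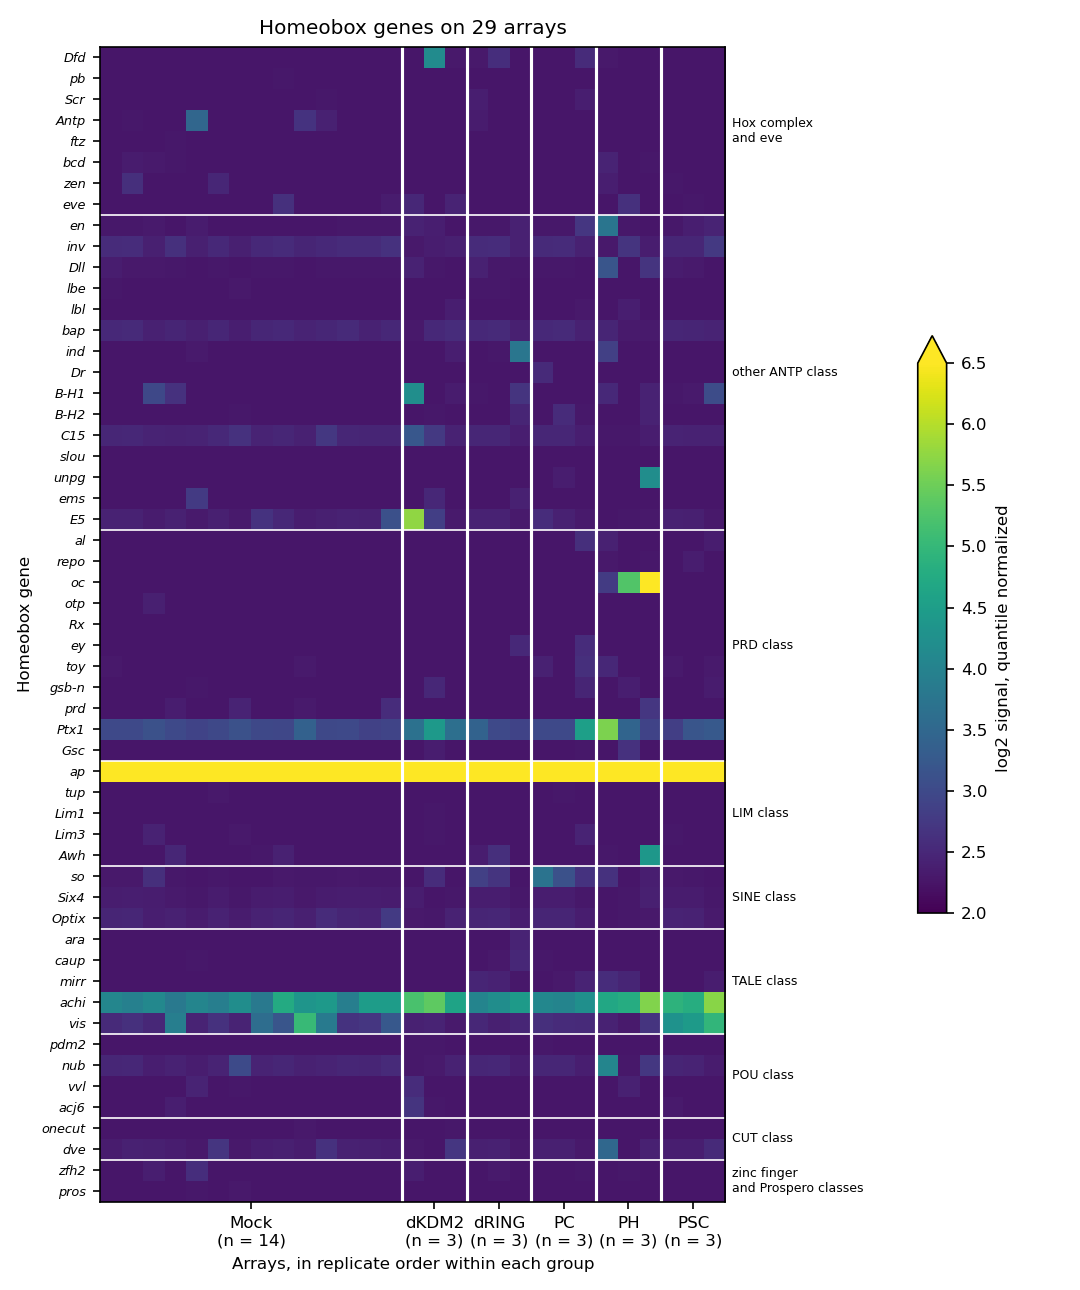
Level of each of the 55 homeobox genes (rows, by class) on each of the 29 arrays (columns, in replicate order within each group), on the log2 scale with colours capped at 6.5. The bright cells are the rows of ap and achi, vis on the PSC arrays, oc on the PH arrays, and single arrays of Dfd, E5, B-H1, unpg, Awh, nub and others.

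Several measures of the arrays bear on these counts. Poly-A control transcripts, added to the RNA before labelling on this platform, had a mean level of 2.96 to 7.12 over the Mock arrays, of 7.15 to 9.18 over the dKDM2 arrays and of 9.09 to 9.61 over the PH arrays. They ranged from 3.88 to 5.18 over the other depletions. The share of values at the floor before normalization was 38.3% to 46.0% on the Mock arrays, 35.0% to 40.4% on the dKDM2 arrays and 34.0% to 37.0% on the PH arrays. The spike level therefore cannot be told apart from depletion of dKDM2 or PH. Of the RNAi targets, Sce, the gene of dRING, fell by 4.41 on the log2 scale (SE 0.40) on the dRING arrays, and also by 2.81 after dKDM2 and 2.66 after PH depletion. Pc fell by 2.21 (SE 0.42) on the PC arrays. Psc was called higher on the arrays of every depletion, by 2.36 (SE 0.31) on those labelled PSC and by 2.54 to 4.45 on the others. A fall of Psc from Mock was thus not seen on the arrays labelled PSC, called the PSC arrays below. The genes of dKDM2 and PH were not analysed here. Of 12 blood cell markers, 8 had a Mock mean above 6, while NimC1, peb and gcm were under 3. The list's mean level per array was 6.07 to 7.76 in Mock, 6.29 to 6.81 after PH depletion and 5.69 to 6.43 on the PSC arrays. Of the 12, 2 were called after dKDM2 depletion, 0 by limma after dRING depletion (3 had an unadjusted p under 0.05), 4 after PC depletion, 5 after PH depletion and 5 on the PSC arrays. All those after dKDM2 and PC depletion were higher. After PH depletion and on the PSC arrays alike, 2 were higher and 3 lower. Among the falls, eater fell by 3.13 after PH depletion and by 4.59 on the PSC arrays. Among the rises, peb rose by 2.43 after PH depletion and ush by 1.82 on the PSC arrays. The 2 muscle and 3 fat body markers measured had means under 3 in every group, and of these Fbp2 alone was called, by 0.25 on the PSC arrays. Of 6 neuron markers elav alone was above 6 in Mock, and it rose by 2.36 after dKDM2 and by 2.84 after PH depletion. Of 4 germline markers aub fell by 2.22, 1.74 and 2.38 after dKDM2, PC and PH depletion, and bam fell by 2.20, 3.04 and 2.87 after dKDM2 and PH depletion and on the PSC arrays. Of 3 epithelium markers crb rose by 2.45, 2.11 and 4.14 in those same comparisons as bam. The part of these in the homeobox results was not tested.

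Against Mock, 23 of the 55 homeobox genes were called after at least 1 depletion (41.8%, beside 50.7% of all genes tested), 20 of them after a single one. The 27 calls comprised 25 rises and 2 falls (92.6% rises, beside 58.0% of the 10729 calls over all genes), and 32 genes were called after no depletion. In Mock, 50 of the 55 had means of 2 to 2.5, at or near the floor (90.9%, beside 45.9% of all genes). Genes at such levels can hardly fall, and the shares of rises were not matched for level. After dKDM2 depletion 8 were called, 14.5% of 55 beside 33.1% of all genes tested. Of these, 7 were higher (12.7%, beside 18.4% of all genes) and 1 lower (1.82%, beside 14.7% of all genes). After dRING depletion 1 was called, higher (1.82%), beside 2.77% of all genes called and 2.04% called higher. After PC depletion 2 were called, both higher (3.64%), beside 4.54% and 3.32%. After PH depletion 13 were called (23.6%), beside 34.9%, of which 12 were higher (21.8%, beside 19.6% of all genes) and 1 lower (1.82%, beside 15.4% of all genes). On the PSC arrays 3 were called, all higher (5.45%), beside 16.5% of all genes called and 9.99% called higher. The share called in either direction was below that of all genes in each comparison, while the share called higher was slightly above it for PC and PH. The median change rounded to 0.00 in all 5 comparisons, for the 55 genes and for all genes tested.

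The same counts were taken over genes with a mean under 3 over all 29 arrays, of which 52 were homeobox genes and 5792 were genes of any kind. There, 6 homeobox genes were called after dKDM2 depletion (11.5%, beside 11.7% of all such genes) and 10 after PH depletion (19.2%, beside 14.8%). After dRING depletion 1 was called (1.92%, beside 0.363%), with 2 after PC depletion (3.85%, beside 0.846%) and 1 on the PSC arrays (1.92%, beside 4.8%). A call also requiring a group mean above 4, a rule added after the values were seen, left 1 gene after dKDM2 depletion, achi (27% of all genes passed it), and 3 after PH depletion, oc, ap and achi (27.2%). It left ap, achi and vis on the PSC arrays (14.3%), and 0 after dRING (2.58%) or PC depletion (4.12%), where 5 and 6 of the 55, at any level, had an unadjusted p under 0.05. Every other call concerned a gene whose group means stayed under 4.

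Apterous (ap), the LIM homeodomain selector gene of the dorsal wing compartment, was the only 1 of the 55 with a Mock mean above 6. It lay between 9.28 and 10.87 on the Mock arrays, with a median of 10.23. On the PSC arrays it was at 12.25, 12.46 and 13.01. All 3 PSC arrays lay above every Mock array, as did those of 5.43% of all genes tested. The change was 2.38 (SE 0.27, 5.21-fold, limma adjusted p = 6.32e-07).

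On the PH arrays ap was at 11.08, 11.31 and 11.40, again above every Mock array, which held for 9.46% of all genes. It rose by 1.07 (SE 0.27, 2.10-fold, limma adjusted p = 0.0031). That call was lost on the values as deposited (a change of 0.52), with each array centred on its median (0.38) and with the poly-A spike level as a covariate (0.42). A second probe set for ap did not show it, with a change of 0.27 (SE 0.48, limma adjusted p = 0.823).

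On the dKDM2 arrays ap was at 10.72, 11.08 and 10.85, and the change of 0.69 (SE 0.27) did not pass the test (limma adjusted p = 0.0514). It did pass with the filter on low values (0.69), with the mean of probe sets (0.63), with Mock 1 to 7 (0.85) and without Mock replicate 3, 9 or 10 (0.72 to 0.75). On the dRING arrays it was at 10.25, 10.22 and 11.05 and on the PC arrays at 10.17, 10.18 and 11.33. In both depletions replicates 1 and 2 were close to the Mock median and replicate 3 was above every Mock array. Their changes of 0.31 and 0.37 did not pass the test.

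The other LIM genes had little signal. Awh, which acts in imaginal tissue precursors, was at 2.29, 2.27 and 4.37 on the PH arrays and between 2.27 and 2.49 on the Mock arrays. It was called higher by 0.68 (SE 0.23, limma adjusted p = 0.0209), and the call rests on replicate 3, without which the change was -0.02. A second probe set for Awh did not show it, with a change of -0.01 (SE 0.02, limma adjusted p = 0.768). Lim1, Lim3 and tup, which serve in neuron and appendage fates, stayed under 3 on all arrays and were called after no depletion.

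Ocelliless (oc, also called orthodenticle), a PRD class gene of head and eye development, had the largest rise of any member. It was at the floor on 13 of 14 Mock arrays and at 2.28 on the other, and at the floor on all arrays of dKDM2, dRING, PC and PSC. On the PH arrays it was at 2.79, 5.27 and 6.76, so every PH array lay above all others and the 3 arrays differed widely. The change was 2.67 on the log2 scale (SE 0.37, 6.37-fold, limma adjusted p = 3.39e-06), 2.41 on the values as deposited and 2.26 with median centring. That SE pools all groups, most of whose arrays lay at the floor, and does not measure the spread of the PH arrays alone. The call was kept in the 8 settings that could change it and with each of 17 arrays left out in turn, with changes of 1.76 without PH replicate 3 and 3.75 without PH replicate 1. It could not be tested among genes above 4 on 3 or more arrays, since it passed 4 on 2.

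Ptx1, a PRD class gene related to the vertebrate Pitx genes, was low but above the floor on all arrays. In Mock it ranged from 2.87 to 3.40 with a median of 2.98. On the dKDM2 arrays it was at 3.67, 4.43 and 3.64, all above Mock, as held for 10% of all genes, and it rose by 0.90 (SE 0.33, 1.87-fold, limma adjusted p = 0.0399). On the PH arrays it was at 5.61, 3.44 and 2.90, where replicate 1 stood apart and replicate 3 lay inside the Mock range. It was called there by 0.97 (SE 0.33, limma adjusted p = 0.025), and by 0.16 without replicate 1, which ended the call (adjusted p = 0.843). The dKDM2 call ended without any 1 of its 3 arrays, with changes of 0.64 to 1.04. On the PC arrays it was at 2.98, 2.99 and 4.54 and was not called. A second probe set for Ptx1 showed neither call, with changes of -0.02 after dKDM2 and 0.01 after PH depletion (SE 0.03 each).

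Of the other PRD genes, toy and Gsc were called by small changes. The eye gene toy was at 2.41, 2.27 and 2.60 on the PC arrays, against 2.27 to 2.32 in Mock, a change of 0.15 (SE 0.04, limma adjusted p = 0.0302). Blocked on the replicate number, with Mock 1 to 3, the change was again 0.15 and the call was lost (adjusted p = 0.435), as it was on those arrays with no block (adjusted p = 0.603). Other probe sets for toy did not show the call, with changes of -0.031 (SE 0.055) and -0.003 (SE 0.005). Gsc, the goosecoid gene, was at the floor on all Mock arrays and at 2.27, 2.63 and 2.27 on the PH arrays, a change of 0.12 (SE 0.04, adjusted p = 0.0202) resting on replicate 2. The 7 others of the class, among them the glial gene repo, the eye genes ey and Rx and the pair-rule gene prd, were called after no depletion and stayed under 3.

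**Figure D3:**
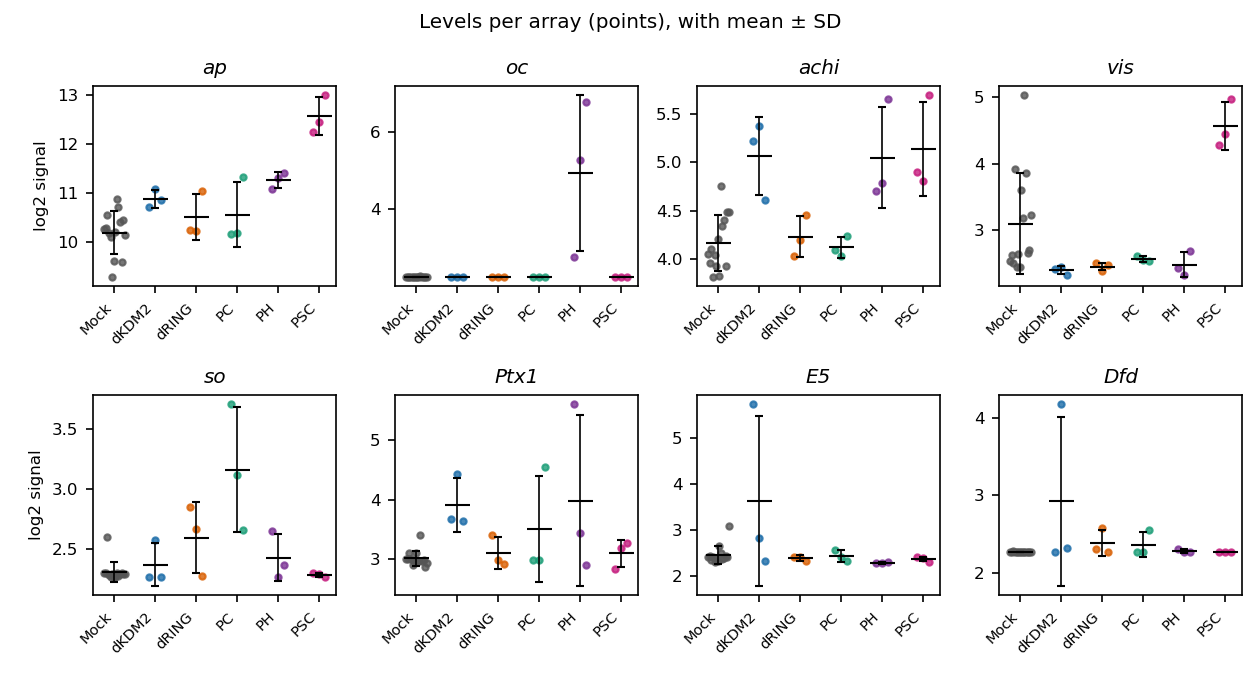
Level on the log2 scale of 8 homeobox genes on each array (points) by group, with the group mean and SD (14 Mock arrays and 3 arrays per depletion). The PSC points of ap and the PH points of oc lie above all Mock points, while the high points of E5 and Dfd are single dKDM2 arrays.

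The TALE genes achintya (achi) and vismay (vis) are neighbouring, near-identical copies known for their role in spermatogenesis. Probe sets of such copies may share signal, so the split between them is uncertain. In Mock, achi lay between 3.82 and 4.75 with a median of 4.08. On the PSC arrays it was at 4.91, 4.81 and 5.69, above every Mock array, and rose by 0.97 (SE 0.22, 1.95-fold, limma adjusted p = 0.00264). It was at 5.22, 5.38 and 4.61 on the dKDM2 arrays. The third value lay inside the Mock range, and the rise was 0.90 (SE 0.22, 1.87-fold, adjusted p = 0.00226). On the PH arrays it was at 4.71, 4.79 and 5.65, of which the first lay inside the Mock range, a rise of 0.88 (SE 0.22, 1.84-fold, adjusted p = 0.00269).

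The dKDM2 and PH calls of achi were lost on the values as deposited (changes of 0.30 and 0.26), after centring arrays on their medians (0.20 and 0.12) and under the spike covariate (0.60 and 0.48). The PSC call was kept under those settings, but not without PSC replicate 3 (0.69, adjusted p = 0.0596), and the PH call not without PH replicate 3 (0.58, adjusted p = 0.0647). After dRING depletion achi was at 4.04, 4.20 and 4.46 and after PC depletion at 4.09, 4.03 and 4.24, all inside the Mock range.

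The copy vis varied more among untreated cells, from 2.44 to 5.03 with a median of 2.68. Mock replicate 10 held the highest value and the next was 3.92. On the PSC arrays it was at 4.29, 4.45 and 4.97, above every Mock array but that one. The rise was 1.47 (SE 0.36, 2.77-fold, limma adjusted p = 0.0059), and 1.27 without PSC replicate 3 (adjusted p = 0.0543). On the 12 arrays of the other depletions vis lay between 2.32 and 2.68, in or under the lower part of the Mock range. The changes there were -0.70 for dKDM2, -0.65 for dRING, -0.53 for PC and -0.62 for PH, none of which passed the test. With Mock 8 to 14 alone, vis was called lower for dKDM2 (-1.07, limma adjusted p = 0.025) and PH (-0.99, limma adjusted p = 0.0376).

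The Iroquois genes ara, caup and mirr, which pattern the wing, eye and notum, lie side by side and stayed under 3 on all arrays. The 1 homeobox gene called after dRING depletion was caup, at 2.27, 2.31 and 2.50 against 2.27 to 2.28 in Mock, a change of 0.09 (SE 0.02, limma adjusted p = 0.0313). With the replicate block, on Mock 1 to 3, the change was again 0.09 and the call was lost (adjusted p = 0.441), and likewise with no block on the same arrays (adjusted p = 0.583). The gene mirr was at the floor on all Mock arrays and at 2.57, 2.46 and 2.27 on the PH arrays, a change of 0.17 (SE 0.04, adjusted p = 0.0017). On the dRING arrays it was at 2.46, 2.44 and 2.29, above every Mock array, as held for 2.18% of all genes, and was not called there (adjusted p = 0.0704). A second probe set for mirr was also called higher on the PH arrays, by 0.22 (SE 0.04, limma adjusted p = 0.000268). The third Iroquois gene, ara, was called after no depletion.

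Among SINE class genes, sine oculis (so), a gene of eye and optic lobe development, had the larger change of the PC calls. It lay between 2.27 and 2.61 in Mock, with a median of 2.30. On the PC arrays it was at 3.71, 3.12 and 2.67, above every Mock array, as held for 2.71% of all genes. The change was 0.85 (SE 0.13, 1.80-fold, limma adjusted p = 0.000176). Blocked on the replicate number, with Mock 1 to 3, the change was 0.76 and the call was lost (adjusted p = 0.0799), as it was on those arrays with no block (adjusted p = 0.117). The dRING arrays, at 2.85, 2.67 and 2.28, lay above Mock in 2 of 3 and were not called (0.29, SE 0.13, adjusted p = 0.233).

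Optix, another eye gene of this class, was at 2.28, 2.29 and 2.31 on the PH arrays, under all Mock arrays (2.34 to 2.77), as held for 12.1% of all genes. It fell by 0.16 on the log2 scale (SE 0.06, limma adjusted p = 0.0249), and the call ended without any 1 of the PH arrays, with changes of -0.17 to -0.16. Six4, which acts in muscle and gonad, was called after no depletion.

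The listed genes of the Hox complex and eve gave 2 calls among 8 genes, 1 after dKDM2 depletion (12.5%, beside 33.1% of all genes) and 1 after PH depletion (12.5%, beside 34.9%). These were Dfd, pb, Scr, Antp, ftz, bcd, zen and eve. The Hox genes lab, Ubx, abd-A and Abd-B were not on the list, so these counts do not cover all Hox genes. The head gene Dfd was at the floor on 13 of 14 Mock arrays and at 2.27, 4.18 and 2.32 on the dKDM2 arrays. Only replicate 2 stood apart there. The change was 0.65 (SE 0.20, limma adjusted p = 0.0156), 0.54 on the values as deposited and 0.02 without replicate 2 (adjusted p = 0.911). The anterior morphogen gene bcd was at 2.45, 2.27 and 2.29 on the PH arrays, against 2.27 to 2.34 in Mock, a change of 0.06 (SE 0.02, adjusted p = 0.0295). A second probe set for bcd did not show it and was at 2.27 on every PH array. After depletion of dRING or PC and on the PSC arrays, 0 of the 8 genes were called by limma and 0 had an unadjusted p under 0.05.

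The thoracic gene Antp reached 3.48 on Mock replicate 5 and was under 3 on all other arrays. On another of its probe sets the dRING arrays reached 3.03 against 2.27 in Mock, a change of 0.36 (SE 0.06, limma adjusted p = 0.00283). The probe set standing for the gene had a change of -0.10 there (SE 0.15, adjusted p = 0.995), so the 2 probe sets disagree. The genes pb, Scr, ftz, zen and eve stayed under 3 on all arrays, with 12 to 13 of 14 Mock arrays of each at the floor.

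The remaining ANTP class genes, which pattern segments, appendages, muscle and neurons, gave 3 calls after dKDM2 depletion and 3 after PH depletion. E5, the neighbour of the head gap gene ems, was at 5.75, 2.83 and 2.32 on the dKDM2 arrays, against 2.32 to 3.09 in Mock. Replicate 1 alone passed the Mock range. The change of 1.17 (SE 0.35, 2.25-fold, limma adjusted p = 0.0117) was 0.11 without it (adjusted p = 0.715).

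C15, a gene of the leg tip, was at 3.23, 2.74 and 2.42 on the dKDM2 arrays, against 2.41 to 2.73 in Mock, a rise of 0.30 (SE 0.09, adjusted p = 0.00846) that was lost without replicate 1 (0.09). A second probe set for C15 did not show it, with a change of -0.01 (SE 0.02, limma adjusted p = 0.838). The segment polarity gene inv was at 2.31, 2.36 and 2.39, all under the Mock range of 2.39 to 2.65, as held for 9.96% of all genes, and fell by 0.16 (SE 0.06, adjusted p = 0.0472). That call was kept in 1 of 8 settings. B-H1, of eye and sensory organs, was at 4.22, 2.28 and 2.34 there and was not called (adjusted p = 0.0603).

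On the PH arrays the segment polarity gene en, the neighbour of inv, was at 3.75, 2.28 and 2.27, against 2.27 to 2.34 in Mock. It was called higher by 0.48 (SE 0.16, limma adjusted p = 0.0245), and was at -0.01 without replicate 1. The appendage gene Dll was at 3.19, 2.27 and 2.67, so that 2 of 3 arrays lay above the Mock range of 2.27 to 2.37, and rose by 0.42 (SE 0.09, adjusted p = 0.00057). Its call was kept without any 1 of 17 arrays and was lost at a similar size with Mock 1 to 3 alone (0.38), with or without the block, and with the spike covariate (0.39). Other probe sets for Dll did not show it, with changes of 0.02 (SE 0.05, limma adjusted p = 0.858) and -0.01 (SE 0.06, limma adjusted p = 0.976). The neural gene unpg was at the floor on all Mock arrays and at 2.27, 2.27 and 4.21 on the PH arrays, a change of 0.65 (SE 0.21, adjusted p = 0.0163) resting on replicate 3. C15 and E5 lay under all Mock arrays after PH depletion, as held for 12.1% of all genes, and were not called there. With the spike covariate C15 was called lower for PH (-0.49, limma adjusted p = 0.0377).

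No other gene of the class was called, and lbe, lbl, bap, Dr, B-H2, slou and ems stayed under 3 throughout. The neuroblast gene ind reached 3.76 on dRING replicate 3 and was at 2.27 and 2.29 on the other dRING arrays (adjusted p = 0.102).

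Among POU genes, nub, a wing and neuroblast gene, was at 4.04, 2.29 and 2.72 on the PH arrays, against 2.35 to 3.01 in Mock. Replicate 1 lay above and replicate 2 below that range. The change was 0.52 (SE 0.18, limma adjusted p = 0.0281) and the call was lost without replicate 1 (0.01). Other probe sets for nub were not called there, the larger of their changes being 0.05 (SE 0.02, limma adjusted p = 0.0628). The related POU gene pdm2 was at the floor on all Mock arrays and at 2.29, 2.30 and 2.27 on the dKDM2 arrays, called higher by 0.02 (adjusted p = 0.0143). The neuronal gene acj6 was at 2.67, 2.28 and 2.27 there, a change of 0.13 (SE 0.04, adjusted p = 0.0231) resting on replicate 1. The POU gene vvl, the CUT class genes onecut and dve, zfh2 and pros were called after no depletion, although dve reached 3.51 on PH replicate 1 (adjusted p = 0.0873).

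**Figure D4:**
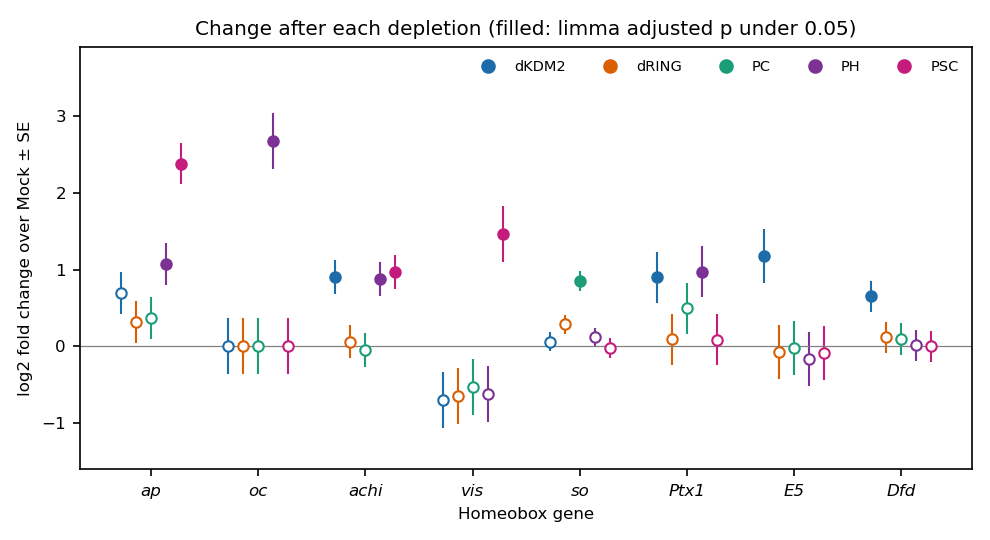
Log2 fold change over Mock with its SE for 8 homeobox genes after each depletion, filled where the limma adjusted p was under 0.05. The PSC change of ap (2.38) and the PH change of oc (2.67) are the largest, and vis differs in sign between the PSC arrays and the other depletions, where it was not called.

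Several of these high values sat on the same arrays. PH replicate 1 held the high values of en, Dll, nub, dve and Ptx1, PH replicate 3 those of unpg, Awh and oc, and dKDM2 replicate 1 those of E5, B-H1 and C15. Over the 52 homeobox genes with a mean under 3, the highest of the 29 values fell on a PH array for 12 (23.1%) and on a dKDM2 array for 12 (23.1%). Over all 5792 genes with such means the shares were 19.7% and 16.1%. It fell on a PC array for 8 (15.4%, beside 7.53%), on a Mock array for 14 (26.9%, beside 39.6%) and on a dRING or a PSC array for 3 each (5.77%, beside 7.27% and 9.88%). The 6 arrays of dKDM2 and PH depletion also had the highest spike levels, whose part in the single high values was not tested.

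The depletions were also compared with each other for these genes, and 30 calls were made over 10 pairs. The PSC arrays were above every other depletion in ap, by 1.69 over dKDM2 (SE 0.35, limma adjusted p = 0.00131), 2.07 over dRING (adjusted p = 0.000373), 2.01 over PC (adjusted p = 0.000426) and 1.31 over PH (adjusted p = 0.00948). The last lost its call with the spike covariate (PH minus PSC -2.07, SE 0.62) and without PSC replicate 3 (-1.09). They were also above each other depletion in vis, by 2.00 to 2.17 on the log2 scale. The call against PC was lost without PSC replicate 3 (PC minus PSC -1.80).

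PH was higher than each other depletion in oc, by 2.67 with adjusted p from 0.000251 to 0.00165. With the spike covariate the calls against dRING, PC and PSC were lost (adjusted p = 0.0529 to 0.0591), with larger SEs (0.84 to 0.88). PC was higher in so than dKDM2 (0.79), PH (0.73) and PSC (0.87), with adjusted p from 0.00102 to 0.00283. Its difference from dRING of 0.56 (SE 0.16) did not pass the test (adjusted p = 0.445). With the spike covariate the so calls against dKDM2 (dKDM2 minus PC -0.65, limma adjusted p = 0.13) and PH (PC minus PH 0.55, limma adjusted p = 0.342) were lost. For achi, dKDM2 and PH were each higher than dRING and PC, by 0.82 to 0.95, and those calls were lost on the values as deposited, where dKDM2 was higher by 0.25 and 0.31. Median centring and the spike covariate ended them too. The achi difference between the PSC and PC arrays of 1.01 (adjusted p = 0.0383) was lost with the replicate block (adjusted p = 0.0529). Other settings that ended this call were median centring (limma adjusted p = 0.0595), Mock 8 to 14 (0.08) and Mock 1 to 3 with no block (0.0665). It was also lost without any 1 of the PC arrays or without PSC replicate 3 (limma adjusted p = 0.0664 to 0.244).

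By pair, dKDM2 differed from dRING in 3 homeobox genes (13.7% of all genes were called), from PC in 4 (13.1%), from PH in 2 (2.46%) and from PSC in 3 (16.4%). The dRING arrays differed from PH in 4 (16.6%) and from PSC in 2 (3.37%). PC differed from PH in 4 (16.1%) and from PSC in 4 (3.93%), and PH from PSC in 4 (17.4%). Between dRING and PC, limma called 0 homeobox genes and 0.223% of all genes, and 7 homeobox genes had an unadjusted p under 0.05. As shares of 55 genes, 2, 3 and 4 calls are 3.64%, 5.45% and 7.27%.

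Neighbouring homeobox genes did not in general share calls. In the RefSeq gene order, 12 pairs of members lie side by side among protein-coding genes, and both genes were tested in 11 of them. The pair vis and achi was the only one in which both genes were called in the same comparison, on the PSC arrays. In the pairs inv and en, caup and mirr, E5 and ems, Dfd and Scr, and zen and bcd, calls fell on 1 gene or in different depletions.

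Genes that act beside these homeobox genes were counted in the same fit. Of 28 other homeodomain genes tested, 6 were called after dKDM2 depletion (21.4%, beside 33.1% of all genes), 4 higher and 2 lower, and 7 after PH depletion (25.0%, beside 34.9%). By limma 0 were called after dRING depletion (3 had an unadjusted p under 0.05), 2 after PC depletion (7.14%, beside 4.54%) and 1 on the PSC arrays (3.57%, beside 16.5%). The repressor gene zfh1, which acts in mesoderm and blood cells, was between 6.35 and 10.92 in Mock. It was at 12.20, 12.10 and 11.86 on the dKDM2 arrays and at 11.92, 12.21 and 12.01 on the PH arrays, all above Mock, and rose by 3.09 (SE 0.55) and 3.08 (SE 0.55). It rose by 2.32 after PC depletion, and its changes of 1.53 for dRING and 1.34 for PSC were not called. The homeodomain cofactors had 2 of 7 genes called higher after dKDM2 depletion (28.6%, beside 18.4% of all genes), 4 after PH depletion (57.1%, beside 19.6%) and 1 on the PSC arrays (14.3%, beside 9.99%). Among them disco, a partner of Hox genes in the head, was at 7.12, 4.60 and 6.61 on the PH arrays against 2.27 to 3.04 in Mock, a rise of 3.77 (SE 0.31). Groucho (gro), the corepressor of several homeodomain proteins, rose by 1.34 after dKDM2 depletion, 1.61 after PH depletion and 0.74 on the PSC arrays (SE 0.24 each). Of 9 segmentation genes without a homeodomain, 2 were called after PH depletion (odd by 0.32, slp2 by 0.02, or 22.2% beside 34.9%), 1 on the PSC arrays (hb by 0.12, or 11.1% beside 16.5%) and 0 after the others, where 0 to 1 had an unadjusted p under 0.05.

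How firmly each call stood was read from 8 alternative settings, or 9 for genes with several probe sets, where the mean over them differs. The common floor, which moved no change, and the filter on low values, which keeps a gene by its level, were not counted. The calls of oc after PH depletion and of ap, achi and vis on the PSC arrays were kept in all of these. Those of so after PC depletion and Optix after PH depletion were kept in 6 of 8, those of C15 after dKDM2 depletion and of Dll, ap and mirr after PH depletion in 6 of 9, and those of achi after dKDM2 and PH depletion in 5 of 8. The other 15 calls were kept in 1 to 4 settings. Fits with 1 array left out were not counted. Without PSC replicate 3 the PSC calls of achi and vis were lost, and that of Optix ended without any 1 of the PH arrays. The settings use the same arrays, and some calls, among them those of Dfd, caup and Dll, were lost with fewer Mock arrays at a like change.

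**Figure D5:**
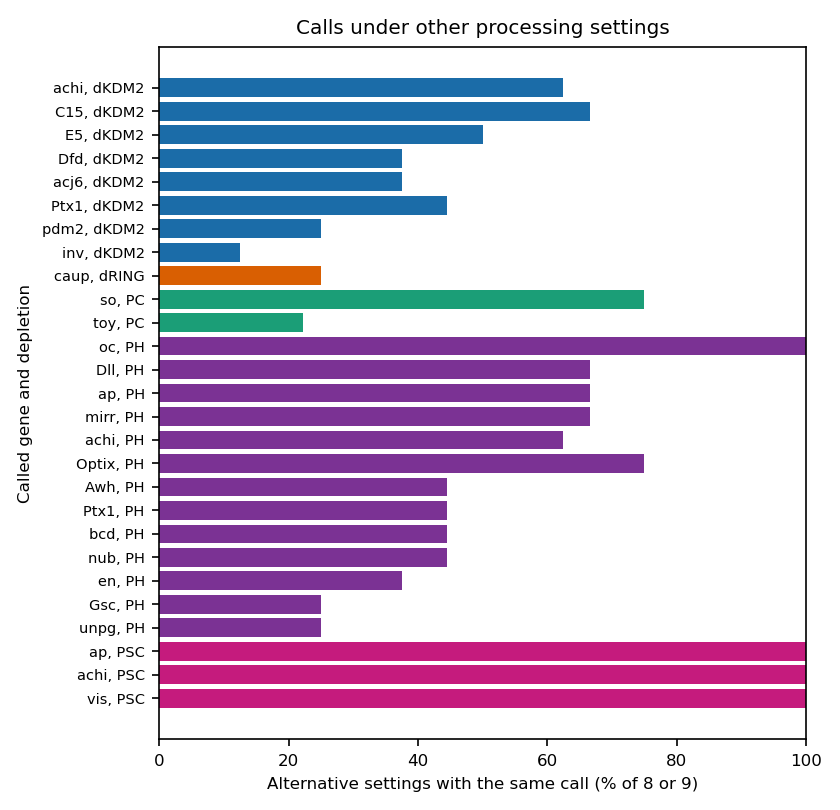
Share of the alternative settings (8, or 9 for genes with several probe sets) in which each of the 27 calls was made again, by gene and depletion. Only the PH call of oc and the PSC calls of ap, achi and vis reach 100%.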

How the data were processed

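The deposited values are log2 signals, 1 per probe set and array, on 18952 probe sets. Per the submitters' processing notes the authors used RMA and GCRMA, with no version, order or role given, and per the labels' protocols each labelling used 7 ug of total RNA. The genome build is not given in the sources used here. The lowest value, 2.27, is common to all arrays, and how it arose is not given in the sources used here.

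From these values, 183 control probe sets were left out and the other 18769 were quantile normalized. The annotation named 1 gene for 13647, several for 402, and 4720 were unnamed here. Of the first, 13544 were matched by gene number to the RefSeq Release 6 table, used for names and gene order alone, and 103 kept an older symbol. The probe set with the highest mean stood for each of 11982 genes, and 305 genes never above the floor were dropped. A limma 3.58.1 model (R 4.3.3) with 6 group means and eBayes with an intensity trend was fitted to all arrays, two-sided. It was tested on simulated data in which only genes well above the floor were changed. That test did not assess changes of genes near the floor, where most homeobox genes lay. Tables were made with Python 3.11.15 and pandas 2.3.3.

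The members and gene lists were chosen with earlier results of these data known. Values in every array are given for members called against Mock or with a mean of at least 6, and up to 4 genes of other lists. The alternatives were other scalings, floors, filters, probe sets and Mock arrays, a spike covariate, no intensity trend, each array left out, and the replicate number as a block. Same-numbered arrays were compared over 5490 genes by the correlation of deviations from group means. All 3 correlations exceeded 0.1 between Mock and dRING (0.160 to 0.624) and between Mock and PC (0.123 to 0.555), so the numbers were taken as pairs there. They did not for dKDM2 (-0.0751 to 0.0582), PH (0.0218 to 0.0922) or PSC (-0.00704 to 0.658). Between depletions they exceeded 0.1 among dRING, PC and PSC (0.694 to 0.923) and between dKDM2 and PH (0.146 to 0.598).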

Additional observations from a re-analysis of the deposited data

Results flagged for a closer look

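A second probe set naming ap, outside the main measurement, had a mean level of 12.4 ± 0.80 (SD, n = 3) on the arrays labelled PSC, where all 3 arrays lay between 11.49 and 12.94, above every Mock array (8.55 to 11.31). Its change from Mock was 2.14 (SE 0.48, 4.40-fold, limma adjusted p = 0.00298), beside 2.38 for the probe set that stood for the gene. On the PH arrays it was at 10.5 ± 0.31 (SD, n = 3) and was not called, with a change of 0.27 (SE 0.48, limma adjusted p = 0.823), where the other probe set rose by 1.07. The reason for the difference between the probe sets was not tested.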

How the results depend on the processing

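The count of homeobox genes called on the PSC arrays was 3 in every setting that left no array out, and 2 to 4 with each array left out. The others moved with the processing. Against the 8, 1, 2 and 13 genes called after depletion of dKDM2, dRING, PC and PH, the values as deposited gave 8, 0, 1 and 20, all higher. Median centring gave 21, 0, 1 and 27, of which 16 dKDM2 and 20 PH calls were lower. Under that scaling the median of all genes moved by -0.14 for PH and -0.09 for dKDM2, which shifts every gene at the floor. The filter on low values, which left 4 homeobox genes, gave 3, 0, 0 and 3. Mock 1 to 7 gave 4, 0, 1 and 6, Mock 8 to 14 gave 5, 1, 1 and 8, and Mock 1 to 3 gave 1, 0, 0 and 4. The spike covariate gave 0, 1, 2 and 2, with 13 dKDM2 genes at an unadjusted p under 0.05 in the fit without it, and the mean over probe sets gave 9, 1, 1 and 13. A call requiring a group mean above 4, added after seeing the data, gave 1, 0, 0 and 3. With each array left out the counts ranged from 5 to 10, 1 to 3, 2 to 4 and 9 to 13.

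The fit with the replicate block, on Mock 1 to 3, gave 1, 0, 0 and 4 calls in that order and 3 on the PSC arrays, the same counts as on the same arrays with no block. For PC and dRING, where the numbers were taken as pairs from the correlations alone, the calls of so, toy and caup were lost on these fewer Mock arrays. This held both with and without the block. Between the depletions 30 calls became 130 with median centring, 13 with the filter, 17 with Mock 1 to 3, 11 with the spike covariate, and 23 to 52 with each array left out. With the block they became 22.

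Among the 27 calls, those that turned direction after dKDM2 depletion were inv on the values as deposited (0.0219) and pdm2 with median centring (-0.0329). After PH depletion they were Awh without replicate 3 (-0.0176, and up to 1.03 with another array left out) and en without replicate 1 (-0.00987, and up to 0.726). The cause was not tested, except that Awh and en each rest on the array left out. Some changes not called in the main fit were called in opposite directions by different settings. For PH, inv was called higher on the values as deposited (0.22) and lower without PH replicate 2 (-0.19). Likewise, bap was called higher as deposited (0.18) and lower without PH replicate 1 (-0.15). The same held for Six4 and repo for PH and for Lim1 for dKDM2. Of the 27 calls, 20 were lost with the spike covariate and 19 with the replicate block. A common floor moved none of the 27 changes and so tested nothing here. Signal at or near the floor limits what can be seen in most of these genes.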
